A study of Homo sapiens with 12 samples.

Results

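The response of 1 engineered leukaemia line to doxycycline was described across all expressed genes, from 4 of the 12 RNA-seq libraries of the study. HPB-ALL is an established human line of T-cell acute lymphoblastic leukaemia, called T-ALL below. The labels say that its cells were infected with lentiviruses for doxycycline-inducible overexpression of TAL1 together with LMO1 (the TAL1/LMO1 line), of TAL1 alone (the TAL1 line) or of LMO1 alone (the LMO1 line), and each line was given doxycycline or DMSO. The 4 libraries were the TAL1/LMO1 libraries, 2 with doxycycline and 2 with DMSO. The 8 libraries of the other 2 lines entered the filter, the scaling and the estimate of spread in every test. Their own responses are given only for comparison. All lines were grown in medium with tetracycline-free serum, and drug selection started 48 hours after infection and lasted 36 hours before doxycycline was added. Strand-specific libraries of total RNA were read as 100-base pairs. The labels do not state the dose or duration of doxycycline, the promoter of the constructs, or whether a line was 1 clone or a pool. Each of the 12 libraries came from a line with a construct. Within this line alone, effects of doxycycline that need no transgene cannot be told apart from those of TAL1 and LMO1. The TAL1 and LMO1 lines were given doxycycline too. At an adjusted p under 0.05, 1.84% and 2.14% of tested genes changed there, against 60.2% in the TAL1/LMO1 line. A line without a construct was not tested.

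TAL1 belongs to the basic helix-loop-helix transcription factors. It pairs with E proteins (TCF3, TCF4 and TCF12) and binds E-box sequences in DNA. LIM-only proteins such as LMO1 and LMO2 do not bind DNA; they bridge TAL1 and LDB1 to GATA factors, and RUNX1 and MYB are known to occupy the same regulatory elements in T-ALL. TAL1 and LMO1 are silent in most maturing thymocytes and are switched on together in a subset of T-ALL, whereas HPB-ALL carries an active TLX3 gene.

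The TAL1/LMO1 libraries held between 14865073 and 15450565 counts, so that 3 counts, up to which a count of 0 is compatible at 95% confidence, equalled at most 0.193 CPM (levels are counts scaled to a common library size by TMM); this limit covers counting error only. All 17 markers of T-ALL identity that were listed, among them CD3D, CD5, CD7, PTCRA and RAG1, passed the filter on low counts. Their summed level was 6237 and 6324 CPM with DMSO and 7476 and 7783 CPM with doxycycline. Of the 17, 5 rose and 10 fell, 6 of them at least 2-fold (median log2 -0.23), and TCF7 alone, which gained 1537 CPM, exceeded the gain of the sum. Replicates have the same label apart from their number. The p-values therefore measure only the spread between libraries of the same group, estimated over all 12 libraries. The 4 libraries were not equal in 1 respect that touches the results, the level of both transgenes with DMSO, which is given first.

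TAL1 (ENSG00000162367) stood at 3.08 and 7.34 CPM in the DMSO libraries (replicates 1 and 2) and at 932 and 868 CPM with doxycycline (log2 fold change 7.43, SE 0.21, adjusted p = 3.1e-08). LMO1 (ENSG00000166407) stood at 0.449 and 6.89 CPM with DMSO and at 1501 and 1576 CPM with doxycycline (log2 8.71, SE 0.38, adjusted p = 7.4e-07). Levels with doxycycline were alike in both replicates, whereas DMSO replicate 2 held more of both transcripts than DMSO replicate 1. The log2 rise of LMO1 was 7.79 without DMSO replicate 1 and 11.70 without DMSO replicate 2, and that of TAL1 was 8.17 without DMSO replicate 2. The counts do not separate construct reads from those of the endogenous genes. The deposited table of the authors gave log2 fold changes of 7.43 (SE 0.583) for TAL1 and 8.71 (SE 1.5) for LMO1.

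The same order of the DMSO libraries was seen in other strongly raised genes. Of the called genes that rose at least 16-fold and reached at least 10 CPM with doxycycline, 25 in all with TAL1 and LMO1 among them, 21 were higher in DMSO replicate 2 than in DMSO replicate 1. As a percent of each gene's mean level with doxycycline, the median was 1.84% in DMSO replicate 1 (range 0% to 5.37%) and 2.49% in DMSO replicate 2 (0.448% to 7.79%). Among 11 genes that fell at least 16-fold from at least 10 CPM, the remaining level with doxycycline was 3.49% of the DMSO mean in replicate 1 and 3.05% in replicate 2, and replicate 2 was higher for 4 of them. The values of the falling genes compare the doxycycline libraries, not the DMSO libraries. The share of all tested genes higher in DMSO replicate 2 is not given, so 21 of 25 cannot be called particular to raised genes. The part of the transgene level of DMSO replicate 2 in the order of the DMSO libraries was not tested.

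Promoter windows of the genes with the largest rises and falls are shown to place E-boxes, the sites that TAL1 and E proteins can bind, beside the changes that follow. Sequences are from RefSeq (GRCh38.p14), with 250 bases before and 50 after an annotated start. Capitals mark the E-box core CANNTG and the motif AGATAA, which GATA factors bind, on either strand; overlapping matches are joined. Over the 10972 tested genes with such a window, 60.9% held CANNTG and 5.27% held AGATAA. The window of LMO1 is not shown because its reads may come from the construct. SEMA4A, the next rise in order after TAL1 and LMO1, is shown in its place.
ALDH1A2, chr15:58065662-58065961, minus strand: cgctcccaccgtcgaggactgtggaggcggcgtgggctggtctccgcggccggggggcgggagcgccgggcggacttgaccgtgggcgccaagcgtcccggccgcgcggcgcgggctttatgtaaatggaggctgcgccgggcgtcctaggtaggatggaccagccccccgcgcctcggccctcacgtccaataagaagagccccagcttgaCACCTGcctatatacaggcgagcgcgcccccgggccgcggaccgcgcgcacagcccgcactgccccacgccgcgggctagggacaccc
ALDH1A2, second start, chr15:58013974-58014273, minus strand: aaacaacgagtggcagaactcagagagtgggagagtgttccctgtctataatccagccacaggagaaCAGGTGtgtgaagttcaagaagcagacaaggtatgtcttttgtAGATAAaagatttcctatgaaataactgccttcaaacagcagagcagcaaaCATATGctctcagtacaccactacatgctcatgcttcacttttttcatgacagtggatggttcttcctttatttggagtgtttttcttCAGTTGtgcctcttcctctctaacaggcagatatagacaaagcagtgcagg
SEMA4A, chr1:156149694-156149993, plus strand: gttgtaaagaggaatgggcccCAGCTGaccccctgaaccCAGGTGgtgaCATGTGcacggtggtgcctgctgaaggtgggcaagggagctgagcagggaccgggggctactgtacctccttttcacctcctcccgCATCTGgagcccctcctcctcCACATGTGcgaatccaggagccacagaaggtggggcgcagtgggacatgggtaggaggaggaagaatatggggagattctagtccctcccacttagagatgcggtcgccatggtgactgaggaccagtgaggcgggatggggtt
DOCK1, chr10:126905178-126905477, plus strand: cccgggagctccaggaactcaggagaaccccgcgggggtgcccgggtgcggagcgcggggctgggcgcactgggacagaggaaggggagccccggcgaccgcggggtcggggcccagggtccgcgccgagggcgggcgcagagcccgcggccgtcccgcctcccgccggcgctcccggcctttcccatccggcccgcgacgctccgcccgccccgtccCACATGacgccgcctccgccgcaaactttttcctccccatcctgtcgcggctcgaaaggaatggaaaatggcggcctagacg
DNTT, chr10:96304184-96304483, plus strand: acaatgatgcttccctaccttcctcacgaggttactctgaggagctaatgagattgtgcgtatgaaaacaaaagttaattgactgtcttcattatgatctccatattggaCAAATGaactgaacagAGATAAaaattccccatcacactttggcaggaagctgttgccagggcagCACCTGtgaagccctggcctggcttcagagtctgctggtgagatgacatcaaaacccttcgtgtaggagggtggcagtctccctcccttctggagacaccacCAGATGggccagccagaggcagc
The window of SEMA4A held 6 E-boxes, of which 2 overlap in CACATGTG. The first window of ALDH1A2 and that of DOCK1 held 1 E-box each and no AGATAA. The second window of ALDH1A2 and that of DNTT each held 3 E-boxes and 1 AGATAA. A match is a description of these letters, not a bound site, and the counts do not tell which start a gene used.

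In the edgeR fit, the majority of the tested genes of the TAL1/LMO1 line changed with doxycycline. Of 16287 tested genes, 9812 were called at an adjusted p under 0.05 (60.2%); 4644 rose (28.5%) and 5168 fell (31.7%). Most changes were small: the median size was 0.64 on the log2 scale among genes that rose and 0.55 among genes that fell. At least 2-fold changes were called for 1390 genes upwards (8.53%) and 1024 downwards (6.29%), at least 4-fold for 333 and 223, and at least 16-fold for 77 and 57. With the libraries scaled by total counts the split was 5611 higher and 4277 lower, so the balance of directions depends on the scaling. The number called depends on the method: DESeq2 called 8197 of the tested genes. The authors' deposited table held 6989 of 17528 genes at an adjusted p under 0.05, which is not a majority.

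The response differed by expression level and by gene type. Of the 2247 genes under 1 CPM, 14.4% rose and 9.39% fell, whereas of the 2552 genes over 100 CPM, 32.2% rose and 50.7% fell. Among genes of 20 to 100 CPM, 31.1% rose and 42.5% fell. Fewer counts give a gene less chance to be called, but among calls of any size rises were the more frequent in low genes and falls in high ones. Among calls of at least 2-fold this was not so for genes over 100 CPM, of which 144 rose (5.64%) and 138 fell (5.41%). Of 12243 protein-coding genes, 30.6% rose and 37.0% fell; of 2245 long noncoding genes, 24.2% rose and 13.5% fell. Called rises summed to 127117 CPM and called falls to 191554 CPM, and 223 genes made up 50% of the gain and 357 genes 50% of the loss. The excess of loss over gain depends on the scaling and is no measure of RNA lost. TMM factors were 1.0105 and 1.0122 with DMSO and 1.085 and 1.0797 with doxycycline, which lowers summed levels with doxycycline.

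**Figure D1:**
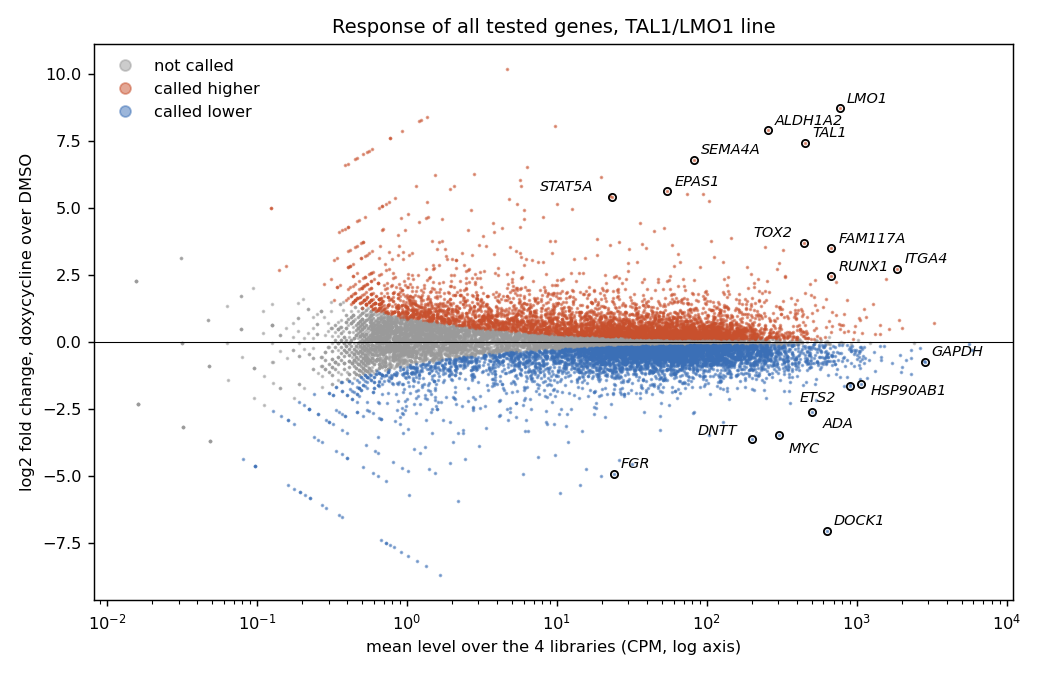
Log2 fold change of each tested gene (doxycycline over DMSO, vertical) against its mean level over the 4 TAL1/LMO1 libraries (CPM, log axis); genes of the Y chromosome and XIST are not drawn. Colours mark genes called higher, lower or not called, and named genes are circled: LMO1, ALDH1A2 and TAL1 lie highest among the circled genes and DOCK1 lowest.

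The largest rises among well expressed genes included those of ALDH1A2, SEMA4A and EPAS1, beside the transgenes. ALDH1A2, which makes retinoic acid, stood at 0.834 and 3.41 CPM with DMSO and at 493 and 524 CPM with doxycycline (log2 7.90, SE 0.18, adjusted p = 3.5e-14). Its rise was 7.21 without DMSO replicate 1 and 9.23 without DMSO replicate 2. SEMA4A, a semaphorin that acts between immune cells, rose from 0.962 and 1.93 CPM to 159 and 166 CPM (log2 6.81, SE 0.22). In both genes the doxycycline libraries agreed closely and lay far above the DMSO libraries. EPAS1, which encodes the hypoxia-inducible factor HIF-2alpha, rose from 2.44 and 1.87 to 106 and 108 CPM (log2 5.63, SE 0.18). EPSTI1, MCC, the membrane-fusion protein gene STX3 and VAV3 rose by between 4.24 and 5.50 on the log2 scale, with no overlap between treatments.

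DOCK1 had the largest fall of a well expressed gene. DOCK1, an exchange factor that activates the GTPase RAC, stood at 1267 and 1235 CPM with DMSO and at 9.44 and 9.34 CPM with doxycycline, 133 times lower (log2 -7.06, SE 0.08, adjusted p = 2.6e-76). DNTT, the template-independent DNA polymerase of receptor rearrangement, fell from 375 and 366 to 31.4 and 28.6 CPM (log2 -3.63, SE 0.06). MZB1, a chaperone of the endoplasmic reticulum best known from B cells, fell from 187 and 193 to 15.8 and 17.9 CPM (log2 -3.49, SE 0.07). All of these genes had DMSO libraries far above the doxycycline libraries. MYC, a master regulator of growth, fell from 540 and 577 to 48.9 and 50.7 CPM (log2 -3.49, SE 0.05). ADA, which clears adenosine, fell from 839 and 895 to 143 and 142 CPM (log2 -2.61, SE 0.05). ARRDC4, an arrestin-like regulator of nutrient uptake, the cytoskeletal gene SHROOM2, the protease gene ADAMTS17 and CR2, a complement receptor, changed by between -3.28 and -2.61. NME1, a nucleoside diphosphate kinase, had 67.0 and 64.2 CPM with DMSO and 10.2 and 11.4 CPM with doxycycline; its neighbour NME2 was listed at 0 in the 4 libraries, so reads of the NME1 and NME2 locus were not fully assigned.

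**Figure D2:**
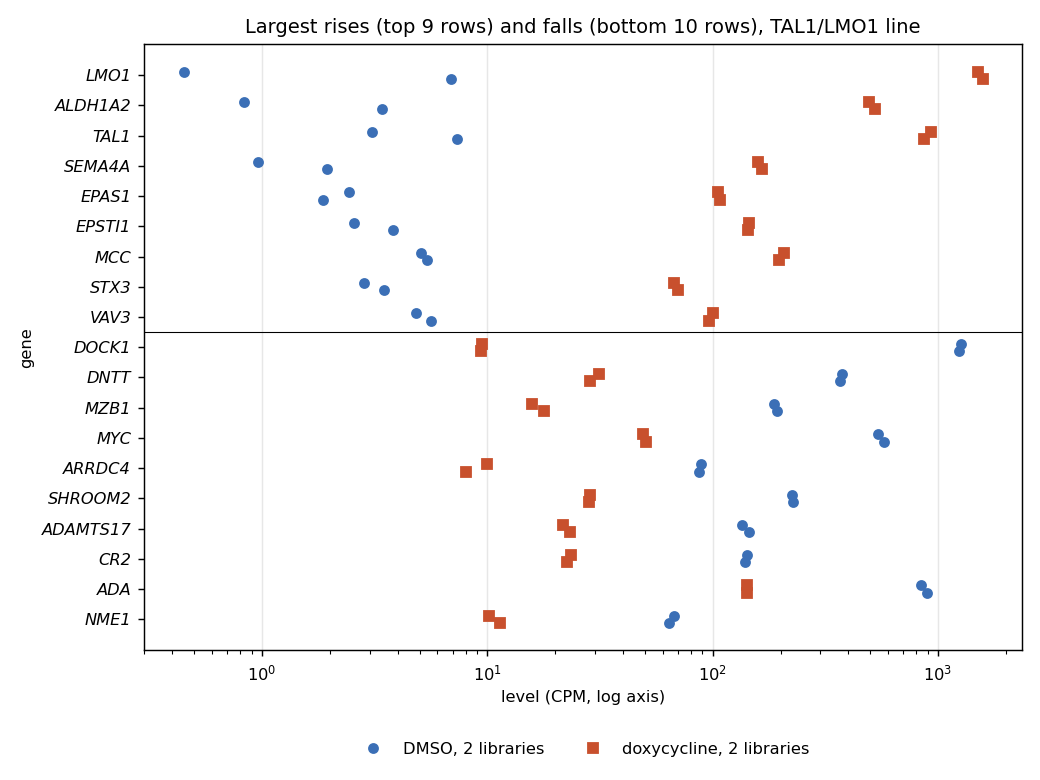
Level in each of the 4 TAL1/LMO1 libraries (CPM, log axis) of 9 of the 10 largest rises and the 10 largest falls among called genes with at least 50 CPM in the higher group; circles are the 2 DMSO libraries and squares the 2 doxycycline libraries, with replicate 1 drawn above replicate 2. The treatments overlap for none of these genes, and the DMSO libraries of LMO1, ALDH1A2 and TAL1 lie farther apart than those of the falling genes.

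By change in mean CPM, the largest gains and losses were mostly in other genes, beside LMO1, which gained 1535 CPM, and DOCK1. ITGA4, the alpha-4 integrin that binds VCAM1, had 490 and 494 CPM with DMSO and 3348 and 3140 CPM with doxycycline (log2 2.72, SE 0.04). SEC31B, a coat protein of vesicles leaving the endoplasmic reticulum, rose from 495 and 540 to 2598 and 2637 CPM. TCF7, a transcription factor of T-cell commitment, was already high and rose by 0.68 (SE 0.04), from 2496 and 2564 to 4018 and 4116 CPM. The rise of TCF7 was small in fold but large in counts, whereas those of ITGA4 and SEC31B were large in both. ELOVL5, which lengthens fatty acids, FAM117A, CALR, a calcium-binding chaperone, and STAT5B, a cytokine-activated transcription factor, also gained, and FAM117A went from 112 and 109 to 1132 and 1345 CPM. The losses were led by PTMA, the receptor constant region TRBC2, the glycolytic enzyme gene GAPDH, the tubulin gene TUBB, the heat shock protein genes HSP90AA1 and HSP90AB1, the elongation factor gene EEF1A1, and DOCK1. TRBC2 went from 2605 and 2761 to 1235 and 1235 CPM, GAPDH from 3554 and 3556 to 2070 and 2154 CPM, and EEF1A1 from 6598 and 6316 to 5108 and 5294 CPM. PTMA, GAPDH, TUBB, EEF1A1 and the HSP90 genes have processed pseudogenes, and TRBC2 has the close copy TRBC1, which may have taken part of their reads.

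The partners of TAL1 moved in both directions, and the 3 tested genes of ID proteins, which block E proteins, fell. Of 6 tested E-protein and ID genes, 1 rose and 5 fell (median log2 -0.71, against -0.01 over all tested genes). Counts of this and the following lists stand beside 28.5% of all tested genes that rose and 31.7% that fell. TCF12 had 269 and 263 CPM with DMSO and 312 and 302 CPM with doxycycline (log2 0.21, SE 0.05). TCF3 had 791 and 817 against 536 and 571 CPM (log2 -0.54, SE 0.04), and the lower TCF4 changed by -0.47 (SE 0.10). The E-protein genes therefore shifted modestly and unequally. ID1 went from 6.73 and 7.53 to 0.994 and 1.11 CPM (log2 -2.75, SE 0.27), ID3 from 36.5 and 32.4 to 8.63 and 9.03 CPM (log2 -1.96, SE 0.10), and ID2 changed by -0.89 (SE 0.15). In the TAL1 line ID1 also fell, by 0.62 on the log2 scale (adjusted p = 2.3e-05).

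Among LIM-only, LDB, SSBP and GATA genes, the bridging partners, 2 of 8 tested members rose and 3 fell (median -0.06). Such counts lie near the shares of all tested genes, 28.5% and 31.7%. LMO4, a LIM-only relative of LMO1, rose from 16.4 and 17.6 to 28.5 and 28.5 CPM (log2 0.75, SE 0.09). SSBP4, SSBP1 and SSBP2 fell, by 0.85, 0.83 and 0.39 on the log2 scale; SSBP2 and SSBP4 encode partners of LDB1, and SSBP1 works on mitochondrial DNA. Without doxycycline replicate 2, 1 member in place of 2 was called higher. LMO3, LDB2 and GATA2 were listed at 0 in the 4 libraries.

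RUNX, MYB and ETS factors, which share regulatory elements with TAL1 in T-ALL, mostly rose. Of 20 tested members, 12 rose and 6 fell (median 0.26). RUNX1 rose from 199 and 217 to 1133 and 1148 CPM (log2 2.46, SE 0.05), ELF1 from 162 and 164 to 414 and 420 CPM (1.35, SE 0.05), and MYB from 453 and 414 to 919 and 962 CPM (2.17-fold). ETS2 moved the other way, from 1387 and 1355 to 433 and 450 CPM (-1.63, SE 0.04). In each of these the replicates agreed within a small part of the change. ERG and ETV5 were listed at 0 in the 4 libraries. Chromatin cofactors lay near the shares of all tested genes, 28.5% higher and 31.7% lower: 5 of 16 rose and 6 fell (median -0.04). CBFA2T3, a corepressor that binds E proteins, rose from 261 and 278 to 603 and 596 CPM (1.15, SE 0.05). HDAC2 (-1.0, SE 0.05), the histone demethylase KDM1A (-0.77, SE 0.05) and the chromatin remodeller SMARCA4 (-0.59, SE 0.04) fell.

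T-lineage transcription factors, as a list, had about as many rises as falls: 9 of 25 rose and 8 fell (median 0.02). Both counts were near the shares of all tested genes, 28.5% and 31.7%. The 4 members with the smallest p were rises. TOX2 had 58.0 and 68.7 CPM with DMSO and 798 and 847 CPM with doxycycline (log2 3.70, SE 0.06), and its relative TOX had 178 and 186 against 430 and 430 CPM (1.24, SE 0.05). NFATC2, a calcium-regulated factor of activated T cells, rose from 94.8 and 100.2 to 293 and 309 CPM, and IKZF1, the Ikaros factor, from 771 and 755 to 1328 and 1355 CPM. TOX2 and TOX were also higher with doxycycline in the TAL1 line (log2 0.90, adjusted p = 1.0e-14, and 0.34, adjusted p = 0.00046).

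Of 17 T-ALL oncogenic transcription factors, 6 were tested and 9 were at 0 in the 4 libraries; 2 rose, 2 fell and 2 were not called, and 1 of the falls is not reported here. TLX3, the factor that HPB-ALL is known for, had 385 and 432 CPM with DMSO and 415 and 430 CPM with doxycycline (log2 0.05, SE 0.06, adjusted p = 0.52), and the treatments overlapped. LYL1, the closest relative of TAL1 in blood cells, rose from 14.2 and 16.6 to 81.4 and 75.9 CPM (2.35, SE 0.08). HHEX, a homeobox gene, rose from 3.72 and 2.96 to 17.4 and 16 CPM (2.32, SE 0.15). HOXA5 had a log2 change of -0.46 (SE 0.20, adjusted p = 0.038); without doxycycline replicate 1 HOXA5 was at -0.16 and without DMSO replicate 1 at -0.35, no longer called. HOXA7 stood at 0.257 and 0.258 CPM with DMSO and 0.373 and 0.369 CPM with doxycycline (adjusted p = 0.52).

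Genes of the T-cell surface fell more often than they rose. Of 23 tested members, 9 rose and 13 fell (median -0.46), beside 28.5% and 31.7% of all tested genes. At least 2-fold changes were evenly split, with 5 rises and 5 falls. CD3E, a signalling chain of the T-cell receptor complex, fell from 404 and 406 to 89.7 and 98.8 CPM (log2 -2.10, SE 0.06). CD247, the zeta chain of the same complex, fell from 261 and 273 to 117 and 115 CPM (-1.20, SE 0.05), and CD1E, a lipid-presentation molecule of cortical thymocytes, from 1346 and 1344 to 446 and 449 CPM (-1.59, SE 0.05). The costimulatory receptor CD28 rose instead, from 297 and 292 to 743 and 775 CPM (1.37, SE 0.05). Markers of rearrangement and of the pre-T-cell receptor were low with doxycycline: PTCRA went from 21.1 and 22.8 to 1.55 and 1.72 CPM (-3.74, SE 0.21) and RAG2 from 27.3 and 25.8 to 2.80 and 2.52 CPM (-3.32, SE 0.16). TRAC, the constant region of the receptor alpha chain, rose from 228 and 229 to 711 and 802 CPM (1.73, SE 0.05). These are bulk values, in which fewer cells of a type and less RNA per cell cannot be told apart.

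Downstream of the receptor the balance was the reverse. Of 27 tested genes of proximal T-cell receptor signalling, 19 rose and 6 fell (median 0.69). VAV3, an exchange factor, rose from 4.81 and 5.60 to 100.4 and 96.0 CPM (log2 4.24, SE 0.12). TEC, a tyrosine kinase of lymphocytes, rose from 8.79 and 9.08 to 113 and 103 CPM (3.60, SE 0.09). LCP2, the SLP-76 adaptor, rose from 75.5 and 79.2 to 494 and 523 CPM (2.72, SE 0.06), and PTPN6, the phosphatase SHP-1, from 203 and 220 to 564 and 572 CPM (1.42, SE 0.05). These 4 genes moved in the opposite direction to CD3E and CD247. LCP2 rose in the TAL1 line as well (log2 0.50, adjusted p = 9.6e-09). SYK and THEMIS were listed at 0.

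JAK and STAT genes, which carry cytokine signals to the nucleus, rose almost throughout. Of 11 tested members, 10 rose and none fell (median 1.0), and 5 of the rises were at least 2-fold; beside 28.5% of all tested genes that rose this is a high share of the list. Their summed level was 1189 and 1211 CPM with DMSO and 3328 and 3421 CPM with doxycycline, 2.81 times as high. STAT5A stood at 0.834 and 1.29 CPM with DMSO and at 44.5 and 46.3 CPM with doxycycline (log2 5.41, SE 0.25). STAT3 rose from 181 and 178 to 883 and 878 CPM (2.29, SE 0.05), STAT5B from 255 and 262 to 1179 and 1224 CPM (2.22, SE 0.05), and JAK1 from 181 and 176 to 366 and 385 CPM (1.07, SE 0.05). The doxycycline libraries of these genes lay above both DMSO libraries with little spread. The response was more positive than in the TAL1 line for 10 of the 11 members and than in the LMO1 line for 10, against 18.4% and 19.1% of all tested genes. Smaller rises were called for 4 members in the TAL1 line and 2 in the LMO1 line, among them STAT3 with 0.24 in each (adjusted p = 0.0018 and 0.0010).

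The receptors above them were divided. Of 19 tested members of the common gamma chain and related cytokine receptors, 10 rose and 4 fell (median 0.36); leaving out doxycycline replicate 1 left 2 called lower. IL9R rose from 3.27 and 3.54 to 42.0 and 41.9 CPM (log2 3.62, SE 0.15), IL4R from 12 and 11.7 to 36.4 and 41.7 CPM (1.72, SE 0.10), and IL6ST, the shared chain of the interleukin-6 family, from 17.4 and 17.6 to 52.4 and 43.4 CPM (1.45, SE 0.09). IL7R, which supports developing T cells, fell from 24.7 and 20.6 to 7.89 and 5.65 CPM (-1.74, SE 0.11). IL7R was higher with doxycycline in the LMO1 line (0.43, adjusted p = 1.1e-07). Of 12 SOCS, CISH and PIM genes, feedback regulators and kinases induced by STATs, 7 rose and 4 fell (median 0.45); the number lower was 2 without DMSO replicate 1 and 2 without doxycycline replicate 2. PIM2, a survival kinase, rose from 43.4 and 41.1 to 145 and 159 CPM (1.85, SE 0.07), and BCL6, a transcriptional repressor in the list, from 39.4 and 41.3 to 106 and 113 CPM (1.44, SE 0.07), whereas PIM3 (-0.62, SE 0.05) and SOCS7 (-0.81, SE 0.08) fell.

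**Figure D3:**
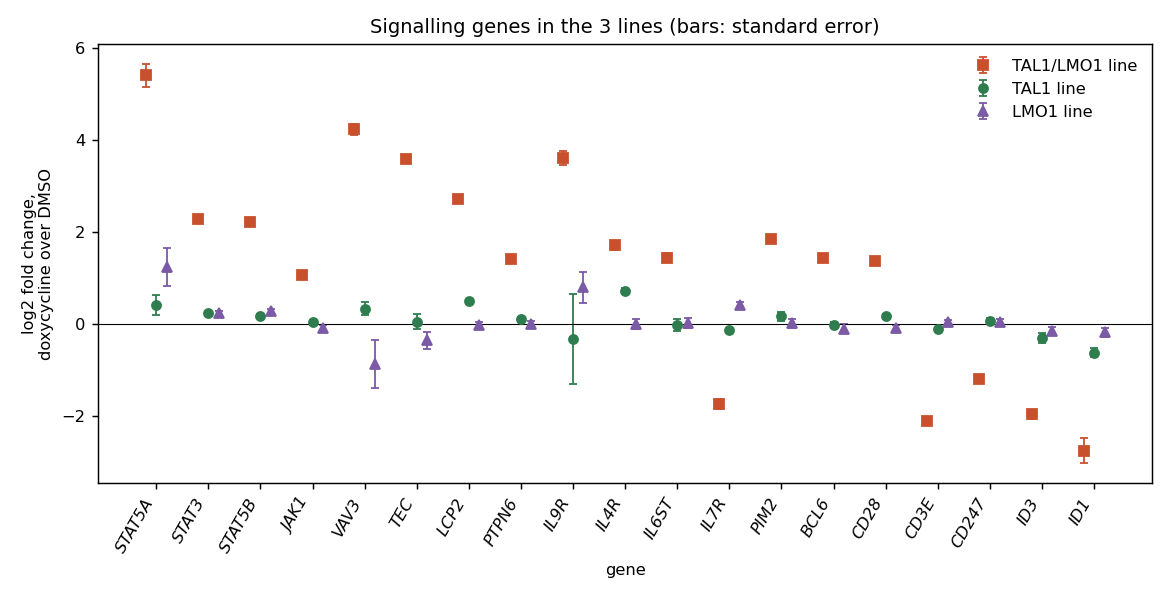
Log2 fold change with doxycycline (points) and its standard error (bars) of cytokine, T-cell receptor and ID genes in the TAL1/LMO1, TAL1 and LMO1 lines, 2 libraries per line and treatment. The TAL1/LMO1 values reach 5.41 for STAT5A and -2.75 for ID1, and the values of the other lines lie nearer to 0.

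NF-kappaB factors and their inhibitors also rose as a group: 12 of 15 were higher and 1 was lower (median 0.41). REL rose from 34.6 and 31.5 to 106 and 85.9 CPM (log2 1.54, SE 0.07), NFKBIZ from 10.3 and 8.5 to 32.7 and 30.8 CPM (1.75, SE 0.11), TNFAIP3, an inhibitor of the pathway, from 311 and 328 to 592 and 620 CPM (0.92, SE 0.05), and NFKB2 by 0.76 (SE 0.06). The rises took in both activators and inhibitors. Of 12 MAPK feedback genes, 7 rose and 3 fell (median 0.36). DUSP6, a phosphatase of ERK, rose from 3.72 and 3.54 to 16.5 and 14.9 CPM (2.11, SE 0.15) and DUSP10 by 0.71 (SE 0.08), while DUSP2 fell from 45.9 and 48.1 to 17.0 and 15.2 CPM (-1.55, SE 0.08) and DUSP7 changed by -0.75 (SE 0.10).

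Homing and adhesion receptors, which guide T cells to tissues, rose in 11 of 24 cases and fell in 5 (median 0.47). Their summed level was 1894 and 1841 CPM with DMSO and 4583 and 4405 CPM with doxycycline, and ITGA4 alone gained more than the list did on balance. ITGB1, the beta-1 chain that pairs with ITGA4, rose from 124 and 124 to 371 and 368 CPM (1.57, SE 0.05), and the lymph-node homing receptor CCR7 from 10.4 and 10.2 to 27.2 and 26.3 CPM (1.37, SE 0.11). CXCR4, the receptor for the bone marrow chemokine CXCL12, fell from 776 and 735 to 361 and 394 CPM (-1.0, SE 0.05). ITGA4 rose in the other lines too, by 0.28 in the TAL1 line and 0.34 in the LMO1 line (adjusted p = 6.7e-06 and 2.9e-08). ELMO1, the partner of DOCK proteins, rose from 58.1 and 58.6 to 211 and 225 CPM (1.90, SE 0.06), and DOCK11 rose as well (0.97, SE 0.06), whereas DOCK1 fell.

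The MYC and MAX network itself showed no common direction, with 3 of 11 tested members higher and 4 lower (median -0.05). That is near the shares of all tested genes, 28.5% and 31.7%. By total counts 5 members were higher. MXD4, which competes with MYC for MAX, rose from 57.1 and 58.3 to 163 and 162 CPM (log2 1.49, SE 0.06), and MAX from 114 and 110 to 168 and 177 CPM (0.62, SE 0.05), while MGA changed by -0.31 (SE 0.05). MYC was therefore the outlying member, at -3.49.

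Genes of ribosomes and protein synthesis fell together. All 78 tested of 80 listed cytosolic ribosomal protein genes fell and none rose (median log2 -0.72, range -1.57 to -0.11). Of all tested genes 31.7% fell, and of those over 100 CPM 50.7% did. Together the 78 genes held 4.99% and 4.94% of all counts in the DMSO libraries and 3.36% and 3.33% in the doxycycline libraries. RPSA, a small-subunit protein, fell from 541 and 509 to 252 and 265 CPM (-1.02, SE 0.05), RPL35 from 641 and 660 to 329 and 343 CPM (-0.95, SE 0.04), RPL8 from 1098 and 1102 to 561 and 603 CPM (-0.92, SE 0.04), and RPS19 from 466 and 522 to 250.01 and 235 CPM (-1.03, SE 0.05). The falls were moderate in size and narrow in range. Ribosomal protein genes have many processed pseudogenes, so part of their reads may have been set aside or counted elsewhere. Their response was more negative than in the TAL1 line for 75 of the 78 and than in the LMO1 line for 76, against 25.4% and 26.4% of all tested genes; 26 fell in the TAL1 line and 6 in the LMO1 line, with medians of -0.13 and -0.09.

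The machinery around the ribosome moved the same way. Of 48 translation initiation and elongation factors, 42 fell and 1 rose (median -0.46); EIF3B fell from 367 and 364 to 153 and 163 CPM (-1.21, SE 0.05) and EIF5A from 313 and 293 to 126 and 130.4 CPM (-1.24, SE 0.05). EEF1B2 (-0.88, SE 0.05) and EIF4EBP1, an inhibitor of cap-dependent translation (-1.35, SE 0.07), were also lower. Of 41 subunits and factors of RNA polymerases I and III, which transcribe ribosomal and transfer RNA, 32 fell and 2 rose (median -0.47), with 1 higher without either DMSO library or without doxycycline replicate 2. POLR1B fell from 97.7 and 95 to 35.8 and 34.2 CPM (-1.46, SE 0.06), POLR1A by 0.94, the shared subunit gene POLR2L by 1.27 and the factor gene GTF3A by 1.05 on the log2 scale.

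Mitochondrial genes encoded in the nucleus fell to a like extent. Of 75 mitochondrial ribosomal protein genes, 64 fell and 3 rose (median -0.64); MRPL3 went from 138 and 135 to 52.4 and 50.8 CPM (-1.40, SE 0.06) and MRPS2 from 119 and 114 to 41.6 and 50.8 CPM (-1.33, SE 0.06), with MRPL42 at -1.17 and MRPS5 at -0.91. Of 76 respiratory chain subunits, 69 fell and 2 rose (median -0.55); 1 was called higher without either doxycycline library and without DMSO replicate 2. ATP5B, the catalytic subunit of ATP synthase, fell from 816 and 780 to 445 and 461 CPM (-0.82, SE 0.04), ATP5G1 from 75.1 and 75.6 to 27.3 and 29.5 CPM (-1.41, SE 0.07), CYC1 by 1.02 and ATP5C1 by 0.87 on the log2 scale.

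Nucleotide synthesis had the lowest median of the lists with at least 8 tested members. Of its 34 tested genes, 29 fell, 14 of them at least 2-fold, and 1 rose (median -0.89); the summed level was 4547 and 4438 CPM with DMSO and 2230 and 2294 CPM with doxycycline. PAICS, a purine synthesis enzyme, fell from 558 and 544 to 149 and 158 CPM (-1.84, SE 0.05), MTHFD1, which supplies folate units, from 267 and 262 to 97.6 and 97.8 CPM (-1.44, SE 0.05), and CTPS1, which makes CTP, from 146 and 147 to 50.1 and 48.5 CPM (-1.57, SE 0.06). Transporters of amino acids and nutrients fell in 16 of 23 cases and rose in 4 (median -0.59). The nucleoside transporter gene SLC29A1 fell from 600 and 584 to 122 and 121 CPM (-2.28, SE 0.05), the glutamine transporter gene SLC1A5 from 358 and 357 to 123 and 129 CPM (-1.50, SE 0.05), the lactate transporter gene SLC16A1 by 1.29 and the folate transporter gene SLC19A1 by 1.43 on the log2 scale. In the LMO1 line SLC29A1 and SLC1A5 were higher with doxycycline (0.24, adjusted p = 5.3e-05, and 0.20, adjusted p = 0.0026).

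Genes of protein folding and of the proteasome fell as well. Of 31 chaperonin and heat shock genes, 29 fell and none rose (median -0.86). HSP90AB1 fell from 1624 and 1583 to 539 and 531 CPM (-1.58, SE 0.04), the mitochondrial chaperonin gene HSPD1 from 539 and 528 to 195 and 178 CPM (-1.52, SE 0.05), CCT5 from 285 and 290 to 118 and 109 CPM (-1.34, SE 0.05), and CCT7 by 1.09 on the log2 scale. HSPA1B was listed at 0, and reads of HSPA1B and its near-identical copy HSPA1A are uncertain. Of 44 proteasome genes, 39 fell and none rose (median -0.59, lowest -1.12). PSMD3, PSMB7, PSMA7 and the assembly factor gene PSMG1 changed by between -1.11 and -0.73, and by total counts 1 proteasome gene was called higher.

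**Figure D4:**
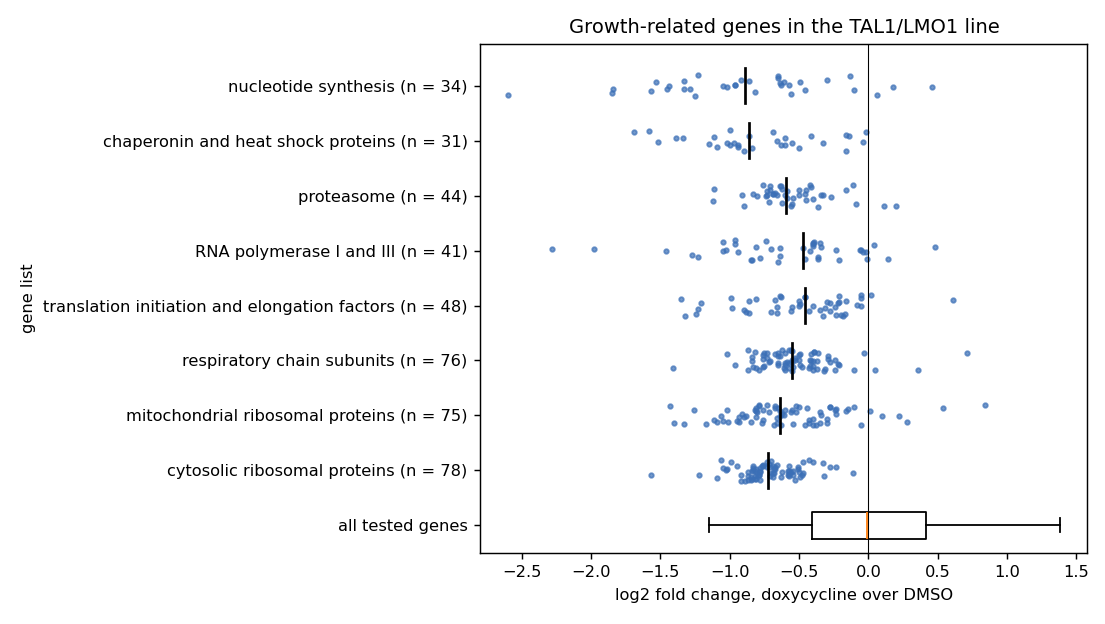
Log2 fold change with doxycycline of every tested member (points) of 8 lists of growth-related genes in the TAL1/LMO1 line, with the list's median as a bar; the box shows all tested genes (median, quartiles, whiskers at the percentiles 5 and 95). Medians of the lists lie between -0.89 and -0.46 and that of all tested genes at -0.01.

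Lysosomal and autophagy genes, the other route of protein degradation, moved up. Of 46 tested members, 29 rose and 6 fell (median 0.36, from -0.86 to 1.15); by total counts 2 fell and by DESeq2 3. TPP1, a lysosomal protease, rose from 145 and 138 to 273 and 299 CPM (log2 1.02, SE 0.05), SQSTM1, an autophagy receptor, from 82.5 and 87.4 to 139.6 and 129.9 CPM (0.67, SE 0.06), and CTSS, a cathepsin, from 25.5 and 23.4 to 47.4 and 43.3 CPM (0.89, SE 0.08). PSAP, the precursor of the saposins, fell from 892 and 878 to 482 and 496 CPM (-0.86, SE 0.04). MHC class I presentation genes rose in 11 of 21 cases and fell in 6 (median 0.20). HLA-E rose from 85.2 and 80.9 to 239 and 245 CPM (1.54, SE 0.05), HLA-B from 207 and 214 to 354 and 371 CPM (0.78, SE 0.05), and NLRC5, their transcriptional activator, by 1.10 (SE 0.09). Reads of class I genes can be shared between these similar genes.

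Cell-cycle entry genes fell more often than they rose, with 16 of 26 lower and 5 higher (median -0.28). TFDP2, a partner of E2F factors, fell from 797 and 775 to 266 and 267 CPM (-1.56, SE 0.05), and the D-type cyclin gene CCND3 from 509.6 and 524 to 298 and 316 CPM (-0.75, SE 0.05). RB1, which holds cells before S phase, rose from 254 and 246 to 580.2 and 545 CPM (1.17, SE 0.05), and its relative RBL2 by 0.82 (SE 0.05). Quiescence-associated genes went the other way, with 17 of 26 higher and 2 lower (median 0.46). PIK3IP1, an inhibitor of PI3 kinase, rose from 7.25 and 6.50 to 53.0 and 51.7 CPM (2.93, SE 0.11), BTG1, an anti-proliferative factor, from 65.6 and 60.5 to 211 and 226 CPM (1.79, SE 0.06), SESN3 from 3.66 and 5.41 to 22.5 and 21.8 CPM (2.29, SE 0.14), and FOXO3 by 0.99 (SE 0.06). Of 18 BCL2 family genes, 7 rose and 3 fell (median 0.16), beside 28.5% and 31.7% of all tested genes. The called members took in both sides of the family. The death-promoting PMAIP1 rose from 171 and 179.6 to 434 and 426 CPM (1.30, SE 0.05) and BMF by 0.91 (SE 0.07), the protective BCL2 rose by 0.77 (SE 0.06), and the death-promoting BID changed by -0.64 (SE 0.06).

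Polycomb and DNA methylation genes fell in 16 of 26 cases and rose in 6 (median -0.24). EZH2, the histone methyltransferase of Polycomb, fell from 209 and 212 to 116 and 116 CPM (-0.86, SE 0.05), UHRF1, which guides maintenance methylation, from 168 and 176 to 68.8 and 70.5 CPM (-1.30, SE 0.05), and CBX2 by 0.80 on the log2 scale. JARID2, a Polycomb cofactor, rose from 190.2 and 187 to 448 and 435 CPM (1.23, SE 0.05). JARID2 was lower with doxycycline in the LMO1 line (-0.36, adjusted p = 9.5e-07).

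Cytotoxic and natural killer genes rose in 8 of 16 tested cases and fell in 4 (median 0.43), at low levels. CRTAM, a receptor of activated killer cells, had 4 counts over the DMSO libraries and stood at 12.3 and 12.7 CPM with doxycycline (log2 6.51, SE 0.72; 7.42 without DMSO replicate 2). CD244 rose from 19.3 and 22.3 to 64.7 and 63.4 CPM (1.62, SE 0.08) and the adaptor gene HCST from 4.75 and 4.38 to 15.2 and 19.0 CPM (1.90, SE 0.15). NCR2, a receptor of natural killer cells, fell from 30.4 and 30.1 to 0.745 and 1.47 CPM (-4.76, SE 0.25). GZMA, GZMH, GZMK, KLRK1, NCR1, FCGR3A, CCL3 and CCL4 were listed at 0.

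Few markers of other blood lineages passed the filter on low counts. Of 11 B-cell markers, 4 were tested; IGLL1, a surrogate light chain, rose from 97.7 and 105 to 574 and 546 CPM (log2 2.47, SE 0.05), CD79B from 4.17 and 4.89 to 10.0 and 8.97 CPM (1.06, SE 0.17), and BLNK stood at 1.35 and 1.22 against 2.55 and 1.90 CPM (adjusted p = 0.034), a call lost when either DMSO library or doxycycline replicate 1 was left out. CD79A had 1.09 and 0.386 CPM with DMSO and 0.311 and 0.369 CPM with doxycycline (adjusted p = 0.068), while MS4A1 and VPREB1 were at 0. Of 13 myeloid markers, ITGAM alone was tested, at 2.12 and 2.96 CPM with DMSO and 0.435 and 0.676 CPM with doxycycline (-2.17, SE 0.38). Of 19 erythroid and megakaryocyte markers, 2 were tested: EPOR rose from 1.86 and 2.45 to 6.65 and 5.41 CPM (1.48, SE 0.21), and GP1BA had 5.52 and 5.21 against 5.16 and 6.94 CPM (adjusted p = 0.39). HBA1, HBA2, HBB and PF4 were among the 10 members at 0. Of 12 stem and progenitor markers, 3 were tested; the receptor gene FLT3 fell from 21.9 and 20.7 to 4.04 and 3.44 CPM (-2.51, SE 0.14) and HLF by 1.71 (SE 0.21), and PROM1, which had 2 counts with DMSO, was 30.8 times as high with doxycycline (95% interval 8.17 to 259).

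The response was set against those of the TAL1 and LMO1 lines, which share no libraries with it. In the TAL1 line 299 genes were called (1.84%), 160 higher (0.982%) and 139 lower (0.853%), and in the LMO1 line 349 (2.14%), 192 higher (1.18%) and 157 lower (0.964%). The test of the difference called 7137 genes against the TAL1 line (43.8%), 2998 with a more positive (18.4%) and 4139 with a more negative response (25.4%). Against the LMO1 line it called 7400 genes (45.4%), 3104 more positive and 4296 more negative, and against the sum of both log2 responses 5655 (34.7%), of which 2172 were above the sum (13.3%) and 3483 below it (21.4%). Transgene levels differed as well: with doxycycline the TAL1 line held 39.2 ± 5.3 CPM of TAL1 (SD, n = 2) and the LMO1 line 226 ± 19 CPM of LMO1, against 900 ± 45 and 1539 ± 53 CPM in the TAL1/LMO1 line. The presence of both genes and their higher dose therefore cannot be told apart in these differences.

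Most genes that moved in the TAL1 line moved the same way here. Of 160 genes that rose in the TAL1 line, 128 rose in the TAL1/LMO1 line (80.0% of the former and 2.76% of the latter) and 16 fell; of 139 that fell, 131 fell (94.2% and 2.53%) and 3 rose. Of 192 genes that rose in the LMO1 line, 89 rose (46.4% and 1.92%) and 79 fell, and of 157 that fell, 118 fell (75.2% and 2.28%) and 25 rose. These shares stand beside 28.5% of all tested genes that rose in the TAL1/LMO1 line and 31.7% that fell. DNTT is 1 of the genes with opposite calls, at 0.38 in the LMO1 line (adjusted p = 6.8e-06) and -3.63 with both genes, and so is IL7R.

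Some large changes of the TAL1/LMO1 line had little counterpart in the other lines. DOCK1 averaged 957 and 838 CPM (DMSO and doxycycline) in the TAL1 line, 1806 and 1757 CPM in the LMO1 line, and 1251 and 9.39 CPM in the TAL1/LMO1 line; its response differed by -6.87 (SE 0.08) from the TAL1 line and by -7.02 (SE 0.08) from the LMO1 line. The fall of DOCK1 in the TAL1 line was small but called (log2 -0.19, SE 0.04, adjusted p = 0.0052, edgeR). FGR, a kinase gene, averaged 141 and 127 CPM in the TAL1 line and 46.3 and 1.51 CPM in the TAL1/LMO1 line (difference -4.78, SE 0.21). ALDH1A2 averaged 1.63 and 1.42 CPM in the TAL1 line, 4.05 and 13.1 CPM in the LMO1 line, and 2.12 and 509 CPM in the TAL1/LMO1 line, and the rise in the LMO1 line was called (log2 1.69, adjusted p = 0.0022). PI16 was the reverse case, in which the TAL1 line also rose: it averaged 0.0655 and 7.82 CPM there (2 and 243 counts), 0.610 and 15.5 CPM in the TAL1/LMO1 line, and 3 and 0 counts in the LMO1 line. ANXA1, an annexin, had 51 counts with DMSO and 0 with doxycycline in the TAL1/LMO1 line, at least 17.7-fold lower, and averaged 20.2 and 12.2 CPM in the LMO1 line.

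The authors' deposited table of the same comparison held an adjusted p for 17528 genes, of which 6989 were under 0.05, 3082 higher and 3907 lower. Of these, 6963 were called in the same direction here and 0 in the opposite one, 8 were tested and not called, and 18 were not tested. Another 2849 genes were called here and not in the authors' deposited table.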

How the data were processed

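The 12 libraries of HPB-ALL cells (3 lines, DMSO or doxycycline, 2 replicates) were analysed. The authors deposited raw counts per gene for 63677 genes; tools named in the submitters' processing notes are featureCounts, STAR 2.5.2a and DESeq2 1.12.4, with the build hg19. The notes do not say if reads or pairs were counted, nor the strand setting. The authors also deposited a DESeq2 table of the TAL1/LMO1 comparison, which per the file headers holds a mean signal over libraries, log2 fold changes and their errors, a Wald score, and p-values before and after adjustment. Gene symbols were taken from it.

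Genes were kept by edgeR's filterByExpr over 6 groups (16287), scaled by TMM, and tested with edgeR 4.0.16 (R 4.3.3) by robust two-sided quasi-likelihood F tests with 1 mean per group over all 12 libraries. This left 6 residual degrees of freedom and a median of 66.0 prior degrees of freedom; the common biological coefficient of variation was 3.35%. Calls are at an adjusted p under 0.05 (Benjamini-Hochberg, all tested genes). Fold changes use a prior count of 0.125; SE comes from the change and its F value, or is the counting error if larger. Differences between lines are contrasts in the same model. With 0 counts in a group, the fold is a bound against 3 counts over the group; with 1 to 3 counts the ratio has an exact 95% interval (Clopper-Pearson).

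The genes and the 37 lists (1039 symbols, 907 tested) were chosen with earlier results of these data known. Named were TAL1 and LMO1, the 10 largest rises and falls with at least 50 CPM and no overlap, the 8 largest gains and losses of CPM, up to 4 called members of each list by p (every tested member of lists under 8), and 5 genes per direction for each difference between lines with at least 10 CPM in some group. Clone names, pseudogenes, antisense, mitochondrial and Y-linked genes were left out of the rankings. A few genes and 1 list that meet these rules are not reported here. Gene types came from GENCODE 29 by identifier (96.6% of tested genes), and promoters from RefSeq by symbol (67.4%). The procedure was tested on simulated data in which few genes changed, so that test does not cover a response as broad as the present one. Alternatives were other scalings, DESeq2, other filters, estimation that was not robust, replicate blocks, the 4 libraries alone, and each library left out in turn.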

Additional observations from a re-analysis of the deposited data

Results flagged for a closer look

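The tests of the difference between lines picked out 7137 genes whose response in the TAL1/LMO1 line differed from that in the TAL1 line, and 7400 that differed from the LMO1 line. The named genes among them have these differences of log2 responses. Against the TAL1 line they were 11.25 for TFPI, 9.70 for CRTAM, 8.10 for ALDH1A2, 7.76 for SEMA4A and 7.75 for PGLYRP4 upwards, and -6.87 for DOCK1, -4.83 for PGPEP1L, -4.82 for NCR2, -4.78 for FGR and -4.67 for SERTAD4 downwards. Against the LMO1 line they were 8.37 for PI16, 8.33 for SAMSN1, 8.15 for KRT72, 7.17 for TFPI and 6.51 for CRTAM upwards, and -7.02 for DOCK1, -6.95 for ANXA1, -5.52 for SERTAD4, -5.0 for FGR and -4.90 for PGPEP1L downwards.

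The upward values of TFPI, CRTAM, PGLYRP4 and SEMA4A against the TAL1 line, those of PI16, SAMSN1, KRT72, TFPI and CRTAM against the LMO1 line, and the downward value of ANXA1 rest on groups with 0 to 3 counts, so their size is not a fold. ANXA1 had 0 counts with doxycycline in the TAL1/LMO1 line. TFPI had 2 counts with DMSO and 626 with doxycycline in the TAL1/LMO1 line and 2 and 0 in the TAL1 line. The differences of TFPI from the TAL1 line, of SAMSN1 and KRT72 from the LMO1 line and of CRTAM from the LMO1 line each lost their call when 1 library of the other line was left out: TFPI at 8.05 without TAL1 DMSO replicate 2, SAMSN1 at 5.13 without LMO1 DMSO replicate 2, KRT72 at 5.80 without LMO1 DMSO replicate 1, and CRTAM at 4.16 without LMO1 DMSO replicate 1 and 5.66 without LMO1 doxycycline replicate 1. CRTAM against the LMO1 line also lost its call without TAL1/LMO1 DMSO replicate 1 (5.94, adjusted p = 0.064, edgeR) and, with all 12 libraries, with no filter on low counts (6.48, adjusted p = 0.079, edgeR). SERTAD4, with 12 counts over the doxycycline libraries, differed from the TAL1 line by -6.22 without doxycycline replicate 1 and -3.95 without doxycycline replicate 2. Against the LMO1 line SERTAD4 differed by -7.06 and -4.80 without the same libraries. Without doxycycline replicate 1, PGPEP1L differed by -5.51 from the TAL1 line and -5.58 from the LMO1 line, and without doxycycline replicate 2 NCR2 differed by -5.41 from the TAL1 line. The difference of ALDH1A2 from the TAL1 line was 7.41 without DMSO replicate 1 and 9.43 without DMSO replicate 2 of the TAL1/LMO1 line, that of TFPI was 10.32 and 14.41, and that of TFPI from the LMO1 line was 6.23 and 10.32.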

How the results depend on the processing

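No called log2 change of a named gene changed sign under any alternative. The same held for the differences between lines of the genes named for them. Signs of the other called differences were not followed. The split of directions over all tested genes did turn: 4644 higher and 5168 lower became 5611 and 4277 by total counts. The count of genes called by doxycycline, 9812, lay between 8197 (DESeq2) and 9888 (total counts) with all 12 libraries, was 9604 in the fit of the 4 libraries alone, and ranged from 8726 to 9023 with 1 library of the line left out. The number called at least 2-fold, 2414, was 1376 among genes with at least 5 CPM in 2 libraries, a setting that tests fewer genes. With thresholds of 32-fold and 50 CPM the median vehicle level of raised genes was 1.09% in DMSO replicate 1 and 1.47% in replicate 2. Of 176 named genes called, 174 kept their call in every alternative with all 12 libraries; the others were HOXA5, lost by DESeq2, by total counts and with the stricter filter, and BLNK, lost by DESeq2 and with no filter. BLNK was also lost without DMSO replicate 1, DMSO replicate 2 or doxycycline replicate 1. Of 42 list counts of at least 5 members, 1 moved by over 1.5 times, the lysosomal genes that fell. Over all tested genes, replicate differences with DMSO and doxycycline correlated at 0.0337 in the TAL1 line. The values were -0.00731 in the LMO1 line and -0.00551 in the TAL1/LMO1 line. Counting error weakens such correlations, so they cannot tell if replicate numbers pair the samples. With the replicate number as a block, 9885 genes were called, and with a replicate block within line 9787; against the TAL1 line 7277 and 7126, against the LMO1 line 7510 and 7379, and against the sum 5833 and 5660. A comparison of promoter motifs between genes that rose and fell, and its alternative at 4-fold, was not run because 58.8% and 63.4% of those genes had a promoter window, too few. Counting depth limits genes under about 1 CPM.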
